A study of Mus musculus with 48 samples.

Results

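The joints described here are Vκ joints of the mouse immunoglobulin kappa locus whose Jκ1 bait end had lost 5 bp or more before joining. They were selected on a measured value, the last genomic base of the bait in each junction: junctions on chromosome 6 between 67500000 and 70660000 (mm9) were kept when the bait ended 5 bp or more from the Jκ1 break, which lies at 70672556 for the coding end and at 70672555 for the signal end. The rule found 1907413 trimmed joints, or 26.3% of the 7265223 Vκ joints and part of the 8250887 junctions of the whole series. The other 5357810 Vκ joints, with shorter or no bait trimming, are called untrimmed. The trimmed joints came very unevenly from the libraries: 937684 from Ku70-/- cells with the coding end bait, 882043 from Ku70-/- cells with the signal end bait, 68007 from WT cells with the coding end bait and 19679 from WT cells with the signal end bait.

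HTGTS-JoinT-seq reads outward from a primer on either side of the Jκ1 double-strand break, so that each junction pairs a bait end with the genomic end (prey) to which it was joined. The 48 libraries were made from genomic DNA of Abelson kinase transformed (vAbl) mouse pro-B cells, 3 for each of 16 groups. The groups crossed genotype (WT or Ku70-/-), bait (Jκ1 coding end, CE, or Jκ1 signal end, SE) and condition: cycling cells without drug, or cells arrested in G1 for 96 h by the Abl kinase inhibitor STI-571 at 3 µM together with DMSO, with L67 at 5 µM or with L82-G17 at 25 µM. L67 and L82-G17 are inhibitors of DNA ligases and were added on the same day as STI-571. The paper states that STI-571 also sets off V(D)J recombination in these cells, and the cycling cells had no such induction. Per the study's methods the WT cells were clone B and the Ku70-deficient line was clone B1; the labels name no clone for a library, so which clone each came from could not be checked. DNA libraries hold no expression, so the cell type and the loss of Ku70 protein could not be checked in these files, and the labels do not say whether the 3 libraries of a group came from separate cultures: p-values measure only the spread between libraries.

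The RAG1/2 endonuclease cuts between a coding segment and its recombination signal sequence (RSS), which consists of a heptamer, a spacer and a nonamer. The cut leaves a hairpin-sealed coding end and a blunt signal end. In classical nonhomologous end joining (NHEJ) Ku70 and Ku80 bind both kinds of end, the hairpin is opened and coding ends are joined after small losses or additions, whereas signal ends are usually joined without loss. Without Ku, ends are exposed to nucleases and are joined by alternative end joining (A-EJ), known for deletions and for short homologies at the joint. The paper describes A-EJ joints of noncycling cells as mostly direct, and A-EJ of cycling cells as relying more on short homologies. A joint between a coding end and a signal end is called a hybrid joint.

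The bait ends are shown because the trimming lengths given below are positions in these sequences (mm9 reference, plus strand, 5′ to 3′). The coding end bait covers chr6:70672556-70672610. Its first 38 bases are the Jκ1 segment (Igkj1, 70672556 to 70672593), the break is at its left, and the capitals mark the last bait base retained at the most frequent trimming lengths of 5, 6, 9 and 16 bp.
Jκ1 coding end: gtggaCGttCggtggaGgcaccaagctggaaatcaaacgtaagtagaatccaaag
The signal end bait covers chr6:70672512-70672555. The break is at its right, and the capitals mark the nonamer and, at the break, the heptamer, here on the plus strand and separated by the spacer of 23 bp.
Jκ1 signal end: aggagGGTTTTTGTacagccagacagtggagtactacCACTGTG
Trimming by 5 or 6 bp ended inside the heptamer, 7 to 29 bp in the spacer, 30 to 38 bp in the nonamer and 39 bp or more beyond the RSS.

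The recurrent joints below show what a trimmed joint looked like. Each is read from the bait into the Vκ end, with 20 reference bases on each side, and capitals mark the bases shared by both ends at the joint (a direct joint has none). Shared bases count as kept on both ends. In WT cells with the coding end bait the most frequent trimmed joints over the 3 DMSO libraries used Igkv4-50, Igkv4-61 and Igkv4-57-1, all with 5 bp off Jκ1 and 1 bp off the Vκ coding end.
Igkv4-50 (prey chr6:69650762-69650781, plus strand): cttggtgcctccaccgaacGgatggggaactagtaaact
Igkv4-61 (prey chr6:69366888-69366907, plus strand): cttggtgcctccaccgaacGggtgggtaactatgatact
Igkv4-57-1 (prey chr6:69494354-69494373, plus strand): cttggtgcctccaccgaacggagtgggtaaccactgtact
The joint with Igkv4-50 had 103, 49 and 115 junctions in the 3 libraries, which was at most 1.40% of the trimmed joints of any of them. It shared 1 base between the ends, as did the joint with Igkv4-61 (87, 88 and 42 junctions), whereas the joint with Igkv4-57-1 (93, 50 and 65 junctions) was direct.

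In Ku70-/- cells the most frequent trimmed joints over the 3 DMSO libraries were those of replicate 1. With the coding end bait they joined Igkv4-58 (3670 junctions), Igkv4-74 (3652) and Igkv4-81 (3392 in replicate 1, with 1 and 11 in replicates 2 and 3). From the signal end they joined Igkv16-104 (5106 in replicate 1, 54 in replicate 2), Igkv8-30 (3593 in replicate 1, 13 in replicate 3) and Igkv12-41 (3233). Leaving out replicate 1, a choice made after its values were seen, the leading joint with the coding end bait used Igkv3-10 (123 and 114 junctions in replicates 2 and 3), again with 5 bp off Jκ1 and the same shared base. From the signal end the leading joint was direct and used the signal end of Igkv1-135 (66 and 313 junctions), with 10 bp off the Jκ1 signal end and 6 bp off the Vκ signal end. The joint second in frequency used the signal end of Igkv16-104 (113 and 158 junctions), with 10 bp off the Jκ1 signal end, 25 bp off the Vκ signal end and 2 shared bases.
Igkv3-10 (prey chr6:70523201-70523220, minus strand): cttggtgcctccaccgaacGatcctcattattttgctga
Igkv1-135 (prey chr6:67560509-67560528, plus strand): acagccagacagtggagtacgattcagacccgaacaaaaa
Igkv16-104 (prey chr6:68376092-68376111, plus strand): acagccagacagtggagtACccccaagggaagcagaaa
These joints were rare singly, at most 0.281% of the trimmed joints of their libraries. In WT cells with the signal end bait the most frequent trimmed joint (195, 40 and 69 junctions) led to position 68387597, which had no Vκ break site within 200 bp. It lacked 5 bp of the heptamer and shared 1 base with the prey. Next in frequency were joints to the coding end of Igkv13-84 (0, 0 and 176 junctions, all in replicate 3) and to that of an unannotated site at 68399714 (10, 47 and 108). The sequence below is that of the most frequent joint.
WT signal end joint (prey chr6:68387597-68387616, plus strand): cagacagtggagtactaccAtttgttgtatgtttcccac

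The files held between 8294 and 385847 junctions per library, of which 2921 to 362359 were Vκ joints. Junctions were not collapsed by position in the files, so the number of distinct joints (prey position and strand, bait end and joint gap) limited the precision further. Replicate 1 of the Ku70-/- DMSO groups stood apart: it had 867 distinct trimmed joints with the coding end bait, against 12313 and 11492 in replicates 2 and 3, and 699 with the signal end bait, against 10764 and 8617. The study's supplementary tables name replicates 2 and 3 of its coding end group but not replicate 1. The cycling WT libraries with the signal end bait had only 61, 60 and 39 trimmed joints, of 6, 8 and 7 distinct kinds. The read had to keep at least 10 bases beyond the primer, so trimming could be seen only up to 54 bp with the coding end bait and 43 bp with the signal end bait, and longer losses are not counted. Bait ends 5 bp or more past the break, 2659 in all, are not members.

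Bait trimming was far less frequent in WT than in Ku70-/- cells, and the WT share depended on the counting. With the coding end bait and DMSO, 2.27%, 2.36% and 2.38% of Vκ joints were trimmed in the WT libraries (mean 2.34% ± 0.0601, SD, n = 3) and 90.5%, 89.4% and 89.3% in the Ku70-/- libraries (89.7% ± 0.670, SD, n = 3). For signal ends the WT values were 0.828%, 0.651% and 0.889% (0.789% ± 0.124, SD, n = 3) and the Ku70-/- values 64.9%, 73.0% and 73.8% (70.6% ± 4.89, SD, n = 3). With each distinct joint counted once, the WT shares were 10.9% ± 0.368 with the coding end bait and 10.9% ± 2.11 with the signal end bait (SD, n = 3 each), so that the baits no longer differed by more than the spread between libraries, and the Ku70-/- shares were 92.6% ± 0.846 and 76.5% ± 3.51. With members from 3 bp the WT shares were 13.7% and 2.16%. No WT library overlapped a Ku70-/- library of the same bait in any condition. These shares are what the rule selected on and are given as a description.

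**Figure D1:**
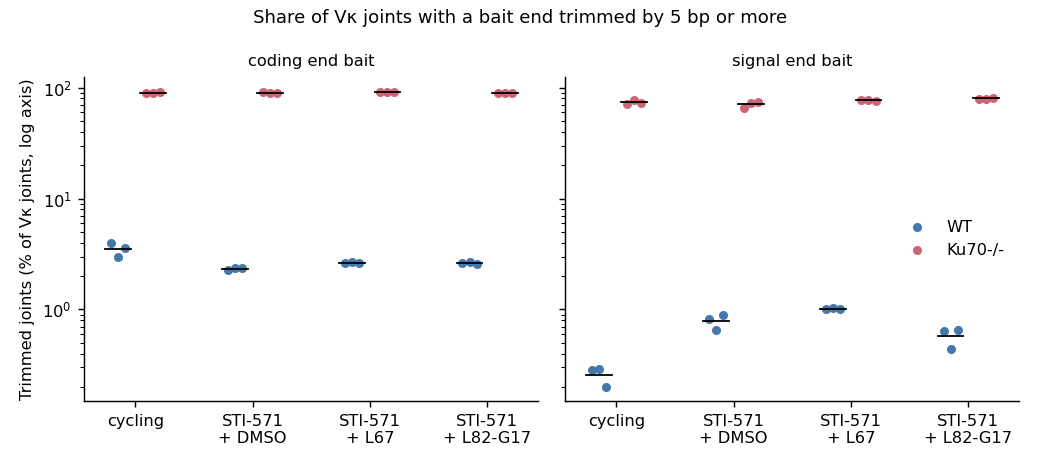
Percentage of Vκ joints with a bait end trimmed by 5 bp or more, on a log axis, for each condition, with the coding end bait at left and the signal end bait at right. Each point is 1 library and each bar the mean of 3; WT libraries lay between 2.27% and 3.98% (coding end) and between 0.201% and 1.03% (signal end), Ku70-/- libraries between 89.0% and 91.5% and between 64.9% and 81.3%.

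WT coding ends were trimmed in 3.501% ± 0.521 (SD, n = 3) of Vκ joints of cycling cells, 2.64% ± 0.0201 with L67 and 2.63% ± 0.0742 with L82-G17. Over distinct joints the order was another, with the cycling share below the rest at 7.02% ± 1.55, against 10.9% ± 0.368 with DMSO, 11.5% ± 0.170 with L67 and 10.25% ± 0.562 with L82-G17. WT signal ends were trimmed in 0.259% ± 0.0501 of Vκ joints of cycling cells, 1.02% ± 0.0143 with L67 and 0.576% ± 0.121 with L82-G17; over distinct joints these shares were 2.52% ± 0.373, 11.6% ± 0.727 and 8.001% ± 2.63. The Ku70-/- coding end values were 90.1% ± 1.26, 90.5% ± 0.207 and 89.2% ± 0.232 in the same order. The Ku70-/- signal end values were 73.7% ± 3.39 in cycling cells, 76.8% ± 0.797 with L67 and 80.1% ± 1.06 with L82-G17, with every library of either inhibitor above the 3 DMSO libraries. The WT cycling libraries held 20210 to 29432 Vκ joints with the coding end bait, against 345175 to 362359 with DMSO. With the signal end bait they held 19376 to 21264, against 327911 to 341922. The part of this depth difference in the shares over distinct joints was not tested.

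The threshold did not fall at a gap in WT cells. Shorter losses were more frequent with the WT coding end, where 13.7% of Vκ joints with DMSO had lost 3 bp or more, most of them under 5 bp. In the WT DMSO libraries with the coding end bait, 1.60% ± 0.0742 (SD, n = 3) of Vκ joints ended 4 bp from the break, just outside the rule, and 1.85% ± 0.0592 ended at 5 bp, just inside it. The signal end values were 0.505% ± 0.120 and 0.262% ± 0.0409. For Ku70-/- cells they were 6.01% ± 1.29 and 7.92% ± 0.869 with the coding end bait and 6.89% ± 4.33 and 1.43% ± 0.846 with the signal end bait.

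Most WT coding end joints that met the rule ended at the same base, the first one inside the threshold. In the DMSO libraries 79.4%, 81.0% and 76.9% of trimmed joints had lost exactly 5 bp, as had 846 of 1312, 754 of 1196 and 841 of 1319 distinct trimmed joints, and the next positions, 6 bp (6.98% ± 1.02, SD, n = 3) and 9 bp (3.34% ± 0.648), were far behind. At 5 bp the last retained plus-strand base of Jκ1 was C (position 70672561), and 60.8% of these joints over the 3 libraries shared exactly 1 base with the Vκ end. At 6 bp, where the base was G, only 1.05% did, and at 9 bp, where it was again C, 57.2% did. Among trimmed joints the median loss was 5 bp, the threshold itself, in all 12 WT libraries. Of the trimmed joints of the DMSO libraries 95.5% ± 0.498 had lost 5 to 9 bp.

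Ku70-/- coding ends were trimmed over the whole visible range. The leading lengths in the DMSO libraries were 9 bp (14.4%, 6.40% and 6.05% of trimmed joints), 5 bp (9.77%, 8.74% and 7.96%) and 16 bp (6.27%, 9.77% and 8.83%), and replicate 1 decided that 9 bp came first. The base C at 5 bp was thus still used often, with 59.5% of its joints sharing 1 base, but it no longer stood out. The median loss was 14, 16 and 16 bp in the 3 libraries. Losses of 10 to 19 bp made up 40.5% ± 4.67 (SD, n = 3) of trimmed joints, losses of 20 to 37 bp 20.3% ± 0.746, and 11.7% ± 1.52 had lost 38 bp or more and with them the entire Jκ1 segment, against 0.113% ± 0.115 in WT cells.

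On the signal end the heptamer was lost in part or whole. In WT DMSO libraries 33.2% ± 0.868 (SD, n = 3) of trimmed joints had lost 5 bp, 21.9% ± 4.25 had lost exactly the heptamer (7 bp) and 15.4% ± 2.81 had lost 6 bp. Of the trimmed joints, 48.6% ± 3.59 ended inside the heptamer, 50.6% ± 4.13 in the spacer and 0.732% ± 0.637 in the nonamer. In Ku70-/- DMSO libraries the leading lengths were 13 bp (15.1%, 8.48% and 8.49%), 10 bp (14.0%, 8.86% and 7.88%) and 12 bp (4.75%, 10.7% and 10.8%), all inside the spacer. Replicate 1 decided their order, since 12 bp was the most frequent of them in replicates 2 and 3. Of these Ku70-/- joints 8.09% ± 3.95 ended in the heptamer, 74.3% ± 6.57 in the spacer, 14.3% ± 1.79 in the nonamer and 3.26% ± 0.858 past it. The other Ku70-/- conditions had more joints past the nonamer, at 4.49% ± 0.557 with L67, 5.15% ± 0.282 with L82-G17 and 6.02% ± 0.194 in cycling cells (SD, n = 3 each), and the libraries of each lay above those with DMSO, narrowly for L67 (lowest 3.978%, against 3.974% in the highest DMSO library). In the nonamer the shares were 23.9% ± 1.07 with L82-G17 and 17.5% ± 0.962 with L67, again above the DMSO libraries (12.3% to 15.7%), and 11.8% ± 5.29 in cycling cells.

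**Figure D2:**
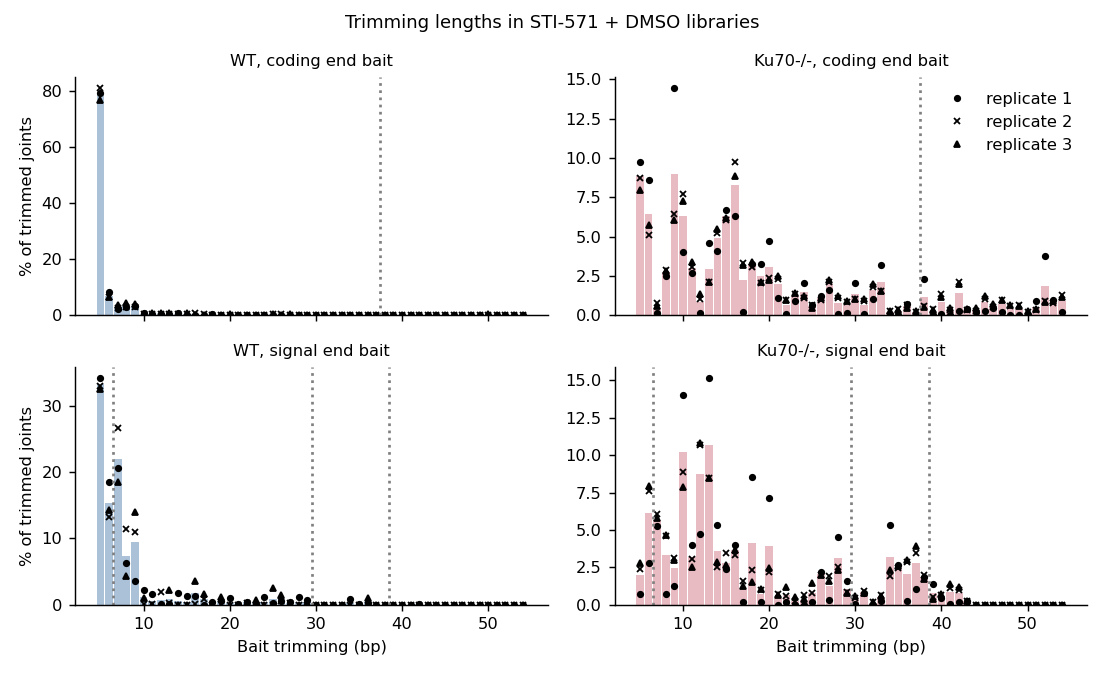
Distribution of bait trimming lengths (bp, horizontal) as a percentage of trimmed joints (vertical, each panel with its own scale) in the DMSO libraries; bars are means of 3 libraries and symbols the libraries. Dotted lines mark the end of Jκ1 (38 bp, upper panels) and the edges of heptamer, spacer and nonamer (lower panels). Trimmed WT coding ends pile up at 5 bp, the first length drawn, with a mean of 79.1%, while no Ku70-/- length exceeds a mean of 10.7%. Losses under 5 bp are not shown.

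Trimmed joints of WT coding ends differed in structure from the untrimmed joints of the same libraries. A joint was direct when bait and prey met without a shared or extra base, overlapped when they shared bases, and inserted when extra bases lay between them. Shared bases were left on the bait end and on the Vκ end, so an overlap lowered the measured trimming of both. It thereby bore on which joints met the rule. The structure differences here and below are therefore not independent of the rule. With overlap bases taken off the bait only the shares were computed, and joint structure was not tested. In the DMSO libraries 48.6%, 58.5% and 48.9% of trimmed joints had a 1-bp overlap, against 11.7%, 11.3% and 11.2% of untrimmed joints. Over all 12 WT libraries the difference was 39.3 percentage points, in the same direction in 12 of 12 (exact two-sided sign-flip permutation test, adjusted p = 0.00117). Direct joints differed by -48.4 points (12 of 12 libraries, exact test, adjusted p = 0.00117) and inserted joints by 7.71 points (11 of 12, adjusted p = 0.00146). Overlaps over 1 bp, at 3.10% ± 0.407 (SD, n = 3) of trimmed joints with DMSO, were 1.32 points more frequent (10 of 12, exact test, adjusted p = 0.00352), and hybrid joints, at 0.723% ± 0.260, were 0.489 points more frequent (11 of 12, adjusted p = 0.00446). These differences depended on the member threshold and on the counting. With members from 3 bp, 1-bp overlaps differed by -2.84 points (exact test, unadjusted p = 0.000977), direct joints by -0.976 points (p = 0.157) and hybrid joints by 0.0959 points (p = 0.0894). Inserted joints then differed by 1.54 points. From 10 bp, 1-bp overlaps differed by 10.05 points, direct joints by -26.97 points, overlaps over 1 bp by 7.07 points and hybrid joints by 4.75 points. With bait ends past the break counted, the last 2 were 4.06 and 3.31 points. With each distinct joint counted once, 1-bp overlaps differed by 23.2 points and direct joints by -17.4 points, and the differences in inserted joints (-5.77 points), hybrid joints (-0.368 points) and overlaps over 1 bp (-0.0204 points) changed sign. Against untrimmed joints ending at the break, inserted joints (1.69 points, exact test, unadjusted p = 0.146) and overlaps over 1 bp (0.227 points, p = 0.497) no longer passed.

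The trimmed joints of WT signal ends looked unlike the other signal end joints. Direct joints made up 38.3% ± 2.79 (SD, n = 3) of trimmed joints with DMSO, and 94.8%, 93.8% and 94.4% of untrimmed joints. Over the 12 libraries the difference was -56.7 points (12 of 12, exact test, adjusted p = 0.00117), but -5.14 points when each distinct joint was counted once (unadjusted p = 0.359). Hybrid joints to Vκ coding ends made up 42.9%, 43.9% and 39.6% of trimmed joints near a Vκ site but 1.42%, 1.52% and 1.77% of untrimmed joints. Over the 12 libraries they were 33.3 points more frequent (10 of 12, exact test, adjusted p = 0.00247). Overlaps over 1 bp were 24.0 points more frequent (12 of 12, exact test, adjusted p = 0.00117), and the cycling libraries, with 39 to 61 trimmed joints each, held the highest levels (27.9% to 75%), while the level with DMSO was 13.5% ± 3.49 (SD, n = 3). Inserted joints were 16.8 points more frequent (12 of 12, exact test, adjusted p = 0.00117), but the difference was -17.4 points when each distinct joint was counted once. The 1-bp overlaps were 15.8 points more frequent (10 of 12, exact test, adjusted p = 0.00247). Without the cycling libraries overlaps over 1 bp were 13.3 points more frequent. Counting distinct joints gave 15.65 points for hybrid joints, 14.71 points for overlaps over 1 bp and 7.85 points for 1-bp overlaps. From 10 bp, hybrid joints differed by 12.83 points, overlaps over 1 bp by 40.5 points and insertions by 10.52 points, and from 3 bp insertions by 26.2 points. All p-values of this paragraph are from the exact sign-flip permutation test. Between 64.7% and 75.4% of the trimmed joints with DMSO lay within 200 bp of a Vκ site, against 99.1% to 99.2% of the untrimmed joints. The untrimmed value is partly set in advance, because the sites were taken from pile-ups of signal end joints in the arrested WT libraries.

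In Ku70-/- cells with the coding end bait, the mean difference in direct joints had opposite signs in the cycling and the arrested groups. Direct joints among trimmed minus untrimmed joints differed by -18.9 points in cycling cells but by 6.04, 11.8 and 4.54 points with DMSO, L67 and L82-G17. Without replicate 2 the cycling mean was -9.36 points, and the DMSO mean was 10.1 points without replicate 1 and 2.91 points without replicate 2. The mean over all 12 libraries was 0.864 points (8 of 12 in this direction, exact sign-flip permutation test, adjusted p = 0.869), and 7.45 points without the cycling libraries (unadjusted p = 0.00781). It ran from -1.41 points with members from 10 bp to 29.8 points against untrimmed joints ending at the break. For overlaps over 1 bp the difference was -3.84 points (8 of 12, exact test, adjusted p = 0.357), -10.2 points without the cycling libraries (unadjusted p = 0.00781) and 8.48 points from 10 bp (unadjusted p = 0.00586). The 1-bp overlaps were 8.88 points more frequent among trimmed joints (11 of 12, exact test, adjusted p = 0.00146), but differed by -5.75 points from 10 bp (unadjusted p = 0.00195), 5.38 points over distinct joints and 24.1 points against joints ending at the break. Hybrid joints were 10.8 points more frequent (12 of 12, exact test, adjusted p = 0.00117) and 5.68 points without the cycling libraries. That direction turned with members from 3 bp (-9.20 points, exact test, unadjusted p = 0.13) and against joints ending at the break (-4.95 points, p = 0.401), and over distinct joints the difference was 4.14 points (p = 0.0845). Inserted joints differed by -5.91 points (11 of 12, exact test, adjusted p = 0.00146) and by -1.32 points from 10 bp (unadjusted p = 0.0723). The insertion difference was -30.5 points from 3 bp, -63.7 points against joints ending at the break and -9.32 points over distinct joints. The sign was opposite to that of the WT difference when every junction was counted, and the same as in WT (-5.77 points) over distinct joints.

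Among Ku70-/- signal ends several differences were larger in the cycling libraries. Direct joints differed by -14.7 points, trimmed minus untrimmed (11 of 12, exact test, adjusted p = 0.00146). The mean was -45.7 points in cycling cells and -4.38 points without them (exact test, unadjusted p = 0.00781). Inserted joints were 3.58 points more frequent (12 of 12, exact test, adjusted p = 0.00117), but 0.392 points without the cycling libraries (unadjusted p = 0.00391) and 1.39 points over distinct joints (unadjusted p = 0.306). Overlaps over 1 bp differed by 4.29 points (3 of 12 in this direction, exact test, adjusted p = 0.357), by -3.28 points without the cycling libraries (unadjusted p = 0.00391) and by 9.76 points against joints ending at the break (unadjusted p = 0.0381). Hybrid joints were 9.33 points (11 of 12, exact test, adjusted p = 0.00146) and 1-bp overlaps 6.83 points more frequent (12 of 12, adjusted p = 0.00117), against 9.19 and 7.26 points without the cycling libraries. From 10 bp the difference in direct joints was -9.31 points (exact test, unadjusted p = 0.136) and that in 1-bp overlaps 4.06 points. From 3 bp hybrid joints differed by 5.49 points and 1-bp overlaps by 3.86 points, and against joints ending at the break direct joints differed by -24.85 points and 1-bp overlaps by 11.2 points.

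**Figure D3:**
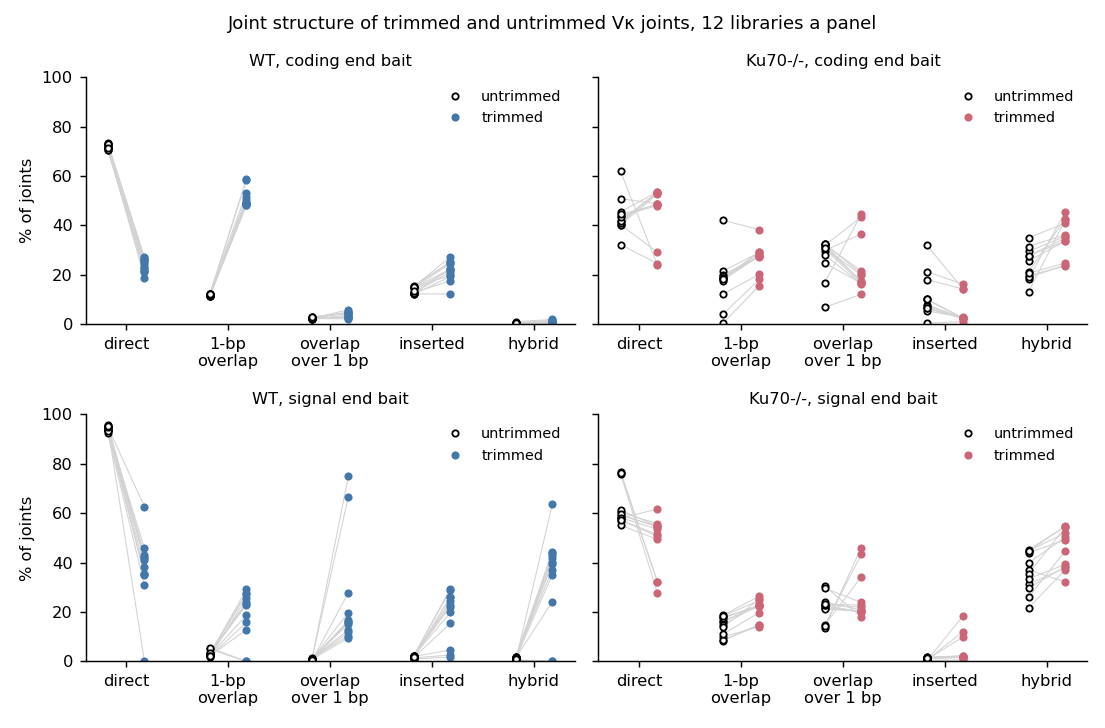
Percentage of joints (vertical) that were direct, shared 1 bp, shared over 1 bp, carried inserted bases or were hybrid, for untrimmed (open) and trimmed (filled) joints of the same library, joined by lines, with 12 libraries a panel; hybrid joints are a percentage of joints within 200 bp of a Vκ site. Direct joints were fewer among WT trimmed joints (mean difference -48.4 points with the coding end and -56.7 points with the signal end bait), while with the Ku70-/- coding end the mean difference was -18.9 points in cycling cells and 4.54 to 11.8 points in the arrested groups.

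Inserted bases separated the trimmed from the untrimmed coding ends in another way. Opening of the hairpin off its tip leaves a few bases that are the inverted repeat of the intact coding end, known as P nucleotides. Among insertions of 2 bp or more with DMSO, an inverted repeat of at least 2 bp of the bait end was found in 60.9% ± 0.953 (SD, n = 3) of untrimmed WT joints and in 2.64% ± 2.37 of trimmed WT joints. The Ku70-/- values were 75.2% ± 13.2 and 4.85% ± 2.60, with 25 such untrimmed insertions in replicate 1. The groups did not overlap in either genotype. On the Vκ side of the same WT insertions the repeat was more frequent in the trimmed joints, 25.8% ± 3.94 against 9.36% ± 0.379. These values are a description, since an intact bait end is what the rule left out.

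The Vκ ends joined to trimmed baits were also measured; a Vκ end counted as trimmed when it lay 5 bp or more inside its own break site, for joints within 200 bp of a site. An overlap lowered the measured loss of the Vκ end as well as that of the bait, so Vκ trimming is not fully independent of the rule. In Ku70-/- DMSO libraries the Vκ end was trimmed in 84.8%, 86.1% and 87.4% of trimmed coding end joints, against 83.3%, 64.9% and 62.8% of untrimmed ones. Over the 12 Ku70-/- libraries the difference was 27.2 percentage points with the coding end bait and 27.9 points with the signal end bait, in the same direction in 12 of 12 libraries each (exact two-sided sign-flip permutation test, adjusted p = 0.00117 for both). With members from 3 bp the coding end difference was 9.76 points, and with Vκ trimming counted from 10 bp 41.1 points; against joints ending at the break the signal end difference was 46.4 points. For signal ends the difference was 0.513 points when only coding preys were counted (unadjusted p = 0.958 in the same exact test). With DMSO, Vκ coding ends were trimmed in 88.7% ± 1.40 (SD, n = 3) of trimmed and 85.5% ± 4.96 of untrimmed joints, and Vκ signal ends in 79.0% ± 4.02 and 43.1% ± 8.504.

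In WT cells the direction for coding ends depended on the bait loss, on the Vκ loss counted and on which joints were included. With the coding end bait the Vκ end was trimmed in 12.3%, 12.04% and 12.4% of trimmed joints with DMSO, against 15.7%, 15.6% and 15.5% of untrimmed joints. Over the 12 libraries trimmed joints differed by -2.93 points (11 of 12, exact sign-flip permutation test, adjusted p = 0.00207). Counted from 10 bp of bait trimming, however, the difference was 31.8 points in the other direction (exact test, unadjusted p = 0.000488). It was also reversed when Vκ trimming was counted from 10 bp (2.16 points), in direct joints (7.12 points) and with signal preys only (7.33 points, exact test, unadjusted p = 0.197), whereas it was -19.15 points over distinct joints, -9.55 points from 3 bp and -10.19 points against joints ending at the break. By bait loss, Vκ ends were trimmed in 22.9% ± 0.193 (SD, n = 3) of joints whose bait ended at the break, 9.84% ± 0.225 at 1 to 4 bp, 10.8% ± 0.527 at 5 to 9 bp, 37.7% ± 12.1 at 10 to 19 bp and 59.2% ± 10.2 at 20 to 29 bp, the last from 59, 70 and 90 joints. Next to signal end baits the Vκ end was trimmed in 28.1%, 28.97% and 51.2% of trimmed joints but 0.765%, 0.726% and 0.653% of untrimmed joints (32.2 points over 12 libraries, 11 of 12, adjusted p = 0.00146 in the same exact test). That difference was 18.25 points over distinct joints, 15.5 points with Vκ trimming counted from 10 bp, and 7.11 points when only coding preys were counted (exact test, unadjusted p = 0.344). The Vκ sites were placed at pile-ups of signal end joints of the arrested WT libraries, nearly all of them untrimmed. The low value of the untrimmed joints is therefore partly set by that placement.

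In Ku70-/- cells with the coding end bait the share was higher at each longer bait loss from 1 bp on in replicates 2 and 3. Where the bait ended at the break, the Vκ end was trimmed in 69.3% and 69.3% of 1076 and 1106 joints, above the next bin. The shares were 64.3% and 62.2% of joints at 1 to 4 bp of bait loss, 71.4% and 75.5% at 5 to 9 bp, 88.9% and 88.5% at 10 to 19 bp, 91.1% and 93.9% at 20 to 29 bp, and 95.0% and 94.6% at 30 bp or more. Replicate 1 did not follow this order, at 83.4%, 89.4%, 77.9%, 71.7% and 99.4% from 1 bp on, and held only 16 joints at the break. The median loss of the Vκ end from 1 bp on was 6, 7, 13, 17 and 25 bp in replicate 2.

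**Figure D4:**
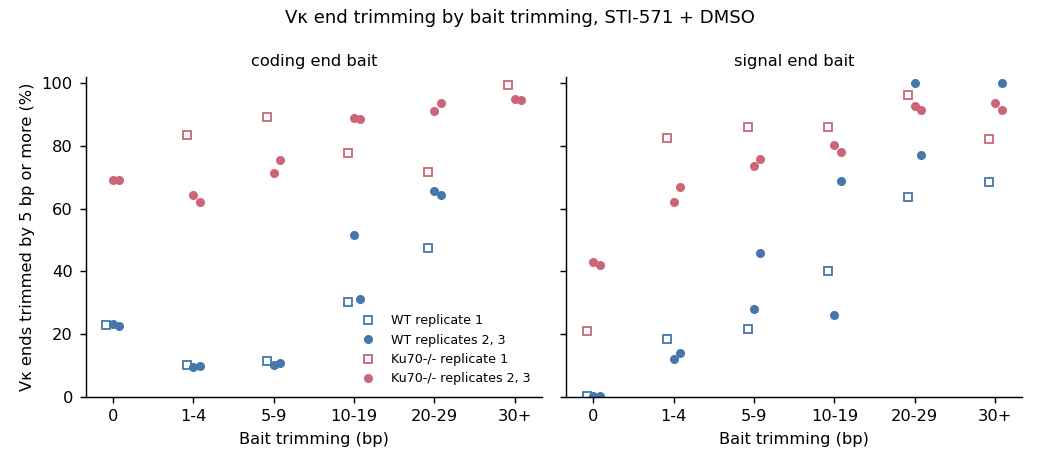
Percentage of joints whose Vκ end had lost 5 bp or more (vertical) by bait trimming in bp (horizontal) in the DMSO libraries, WT in blue and Ku70-/- in red, with replicate 1 as an open square; bins with fewer than 20 joints in a library are not drawn. Ku70-/- replicates 2 and 3 rise from 64.3% and 62.2% at 1 to 4 bp to 95.0% and 94.6% at 30 bp or more with the coding end bait. Replicate 1 does not follow this order. WT coding ends have means of 22.9% at the break, 9.84% at 1 to 4 bp and 10.8% at 5 to 9 bp. Their means at 10 to 19 bp and 20 to 29 bp are 37.7% and 59.2%.

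Trimmed joints of the genotypes were compared directly, with labels permuted within each condition (exact two-sided permutation test over 24 libraries a bait, p-values adjusted over 12 tests). With the coding end bait, trimmed Ku70-/- joints had more often a trimmed Vκ end (74.0 points, exact test, adjusted p = 3.0e-05), more hybrid joints (33.9 points, adjusted p = 3.0e-05) and more overlaps over 1 bp (19.7 points, adjusted p = 3.0e-05) than trimmed WT joints. They had fewer 1-bp overlaps (-24.7 points, exact test, adjusted p = 3.0e-05) and fewer insertions (-16.2 points, adjusted p = 0.00015). They also had more direct joints (21.1 points, exact test, adjusted p = 0.000279), but the last difference and that in 1-bp overlaps changed sign when members were counted from 3 bp (-24.6 and 15.4 points). Counted from 10 bp they were 0.877 points (exact test, unadjusted p = 0.889) and 0.845 points (p = 0.892), and the difference in Vκ trimming was 43.2 points. Over distinct joints the difference in 1-bp overlaps was -6.29 points and that in insertions -35.02 points, and from 3 bp insertions differed by -10.22 points. In cycling cells the genotypes overlapped in direct joints, at 23.9% to 29.1% in Ku70-/- and 25.1% to 27.0% in WT libraries. Insertions there also overlapped, at 14.1% to 16.1% and 12.2% to 19.3%. Without the cycling libraries these differences were 28.3 points in direct joints and -21.0 points in insertions. Joined to the signal end, the Vκ end was more often trimmed (50.7 points, exact test, adjusted p = 3.0e-05), insertions were fewer (-14.0 points, adjusted p = 0.00292) and direct joints more frequent (10.6 points, adjusted p = 0.017). Hybrid joints (10.99 points, exact test, adjusted p = 0.0564), 1-bp overlaps (2.17 points, adjusted p = 0.422) and overlaps over 1 bp (1.22 points, adjusted p = 0.744) did not pass. The difference in overlaps over 1 bp was 6.72 points without the cycling libraries (exact test, unadjusted p = 0.00025) and -15.6 points from 10 bp (p = 0.000287). Hybrid joints differed by 9.06 points without the cycling libraries (exact test, unadjusted p = 0.00125) and by 32.3 points from 10 bp (p = 7.5e-05), and insertions from 10 bp by -6.93 points (p = 0.0711). Direct joints differed by 17.2 points from 3 bp and 19.04 points from 10 bp, insertions by -23.4 points from 3 bp, and hybrid joints by 19.2 points from 3 bp and 18.8 points over distinct joints (exact test, unadjusted p = 0.000312 for the last). In cycling cells insertions made up 12.1%, 18.6% and 9.99% in Ku70-/- libraries and 26.2%, 1.67% and 2.56% in WT libraries. Direct joints there made up 27.7% to 32.2% and 0% to 45.9%. These WT libraries held 39 to 61 trimmed signal end joints each. Without the cycling libraries insertions differed by -19.8 points and direct joints by 12.4 points. Untrimmed joints of the genotypes differed as well (medians over 12 libraries, Ku70-/- against WT). With the signal end bait overlaps over 1 bp made up 22.4% against 0.839% and hybrid joints 36.3% against 1.26%. With the coding end bait the values were 30.8% against 2.42% and 23.3% against 0.313%. Direct joints (both baits) and 1-bp overlaps (coding end) differed in the opposite direction to that of trimmed joints.

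The baits were compared in the same way within each genotype, signal end minus coding end. The labels do not say whether libraries of both baits came from the same DNA, and the test treated them as independent. In WT cells trimmed signal end joints had more hybrid joints (33.6 points, exact test, adjusted p = 0.00033), more overlaps over 1 bp (21.0 points, adjusted p = 5.0e-05), more direct joints (13.98 points, adjusted p = 0.00283) and fewer 1-bp overlaps (-32.1 points, adjusted p = 5.0e-05). Insertions differed by -2.87 points (exact test, adjusted p = 0.324), but by -19.7 points over distinct joints (unadjusted p = 1.25e-05), -11.4 points from 10 bp (p = 0.00828) and 12.4 points from 3 bp (p = 1.25e-05). With members from 3 bp the direction turned for direct joints (-37.51 points, exact test, unadjusted p = 1.25e-05) and 1-bp overlaps (7.89 points, p = 0.00696). From 10 bp, direct joints differed by -15.1 points (exact test, unadjusted p = 0.0597), 1-bp overlaps by -5.31 points (p = 0.387) and hybrid joints by 9.02 points (p = 0.0694). Without the cycling libraries the difference in overlaps over 1 bp was 10.2 points, and from 10 bp it was 31.8 points. The 1-bp overlaps differed by -13.7 points over distinct joints. Direct joints differed by 18.9 points without the cycling libraries. In cycling cells they made up 45.9%, 0% and 30.8% with the signal end and 25.1% to 27.0% with the coding end bait. Vκ ends joined to WT signal ends were more often trimmed (19.1 points, exact test, adjusted p = 0.00126), but the difference was 1.25 points over distinct joints (unadjusted p = 0.728), -3.90 points from 10 bp of bait trimming (p = 0.619), 11.3 points with Vκ trimming counted from 10 bp (p = 0.000612), 6.64 points with coding preys (p = 0.3) and 12.7 points with signal preys (p = 0.143).

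Among Ku70-/- libraries the bait differences that passed were 10.7 points in hybrid joints (exact permutation within conditions, adjusted p = 0.0018), 3.48 points in direct joints (adjusted p = 0.000425), -5.31 points in 1-bp overlaps (adjusted p = 5.0e-05) and -4.21 points in Vκ trimming (adjusted p = 0.00033). Vκ trimming no longer passed when counted from 10 bp (-2.64 points, exact test, unadjusted p = 0.0827), with coding preys (-4.63 points, p = 0.111) or with signal preys (-1.41 points, p = 0.402). Direct joints differed by 0.802 points over distinct joints (exact test, unadjusted p = 0.543), and hybrid joints by 16.0 points without the cycling libraries. In cycling cells the hybrid shares were 37.1%, 32.2% and 44.7% with the signal end and 42.1%, 42.7% and 45.5% with the coding end bait. The mean difference there had the opposite sign. The difference in overlaps over 1 bp was 2.52 points (exact test, adjusted p = 0.0612), 3.43 points without the cycling libraries (unadjusted p = 0.001) and -0.364 points from 10 bp (unadjusted p = 0.685). Insertions differed by -0.687 points (exact test, adjusted p = 0.325), -0.497 points without the cycling libraries (unadjusted p = 0.0493) and -0.0637 points from 10 bp (p = 0.989). The difference in 1-bp overlaps was -2.82 points over distinct joints and -2.68 points from 10 bp. The reach of the reads differed between the baits; with losses of 5 to 30 bp, which both baits could show, the overlap difference was 4.67 points (exact test, unadjusted p = 0.00166).

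Between cycling and arrested Ku70-/- cells the values of joint structure lay far apart, but no comparison of 3 against 3 libraries can give an exact p under 0.1, and after adjustment over 72 such comparisons the smallest was 0.288. All conditions were compared with the same DMSO libraries. Cycling cells lacked both the arrest and the induction of recombination by STI-571, so these cannot be told apart here. Overlaps over 1 bp made up 43.3%, 44.5% and 36.5% of trimmed coding end joints of cycling cells, against 12.1%, 16.1% and 16.6% with DMSO. For signal ends the values were 46.1%, 34.3% and 43.3% against 18.03%, 20.2% and 20.1%. The groups did not overlap. Inserted joints were also more frequent in cycling cells, at 14.8% ± 1.14 (SD, n = 3) against 1.89% ± 0.774 with the coding end bait and 13.6% ± 4.48 against 1.56% ± 0.911 with the signal end bait. The difference changed sign when each distinct joint was counted once (-3.11 and -7.79 points). The hybrid values differed in opposite directions by bait: 43.4% ± 1.76 in cycling cells against 36.0% ± 4.17 with the coding end bait, and 32.2% to 44.7% against 49.3% to 54.2% with the signal end bait. The cycling Ku70-/- libraries held few Vκ joints (2921 to 9001), and at most 70.2% of their trimmed coding end joints lay near a Vκ site, against 97.1% to 97.8% with DMSO. Among joints within 200 bp of a Vκ site the cycling difference in inserted joints with the coding end bait was 7.18 points, against 12.9 points over all joints. The part of joint number in it, and of either in the other differences, was not tested.

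Hybrid shares of trimmed Ku70-/- joints were lower in every L82-G17 library than in any DMSO library of the same bait. With the coding end bait hybrid joints made up 23.8%, 23.7% and 24.7% with L82-G17 against 40.8%, 33.6% and 33.6% with DMSO. With the signal end bait they made up 38.03%, 38.4% and 39.3% against 54.2%, 50.3% and 49.3%. The groups did not overlap, and the differences were -11.9 and -12.7 points (exact permutation p = 0.1 each). The untrimmed joints of the same libraries had hybrid shares of 19.6%, 18.9% and 20.6% with L82-G17 against 34.9%, 25.6% and 27.6% with DMSO for the coding end. For the signal end their shares were 31.2%, 29.7% and 33.5% against 35.6%, 39.9% and 43.9%. The lower hybrid share was thus not particular to trimmed joints with either bait. Overlaps over 1 bp with the coding end bait were 20.6% ± 0.833 (SD, n = 3) with L82-G17 against 14.9% ± 2.47 with DMSO, without overlap between the groups. Vκ ends were trimmed in 90.3% ± 0.0906 against 86.1% ± 1.31 of these joints, again without overlap. With the signal end bait the groups did overlap in both measures. Longer overlaps made up 20.02%, 23.9% and 22.9% with L82-G17 against 18.03%, 20.2% and 20.1% with DMSO, and trimmed Vκ ends 86.4%, 83.3% and 86.4% against 87.1%, 82.8% and 81.9%. With L67, at its own dose, the coding end values were 35.5% ± 0.710 for hybrid joints, 16.96% ± 0.455 for overlaps over 1 bp and 87.2% ± 0.462 for trimmed Vκ ends; the hybrid difference from DMSO was -0.500 points, and 1.91 points without DMSO replicate 1. The signal end values with L67 were 53.8% ± 1.54, 21.0% ± 0.927 and 84.8% ± 0.357. Insertions were at most 2.69% in every Ku70-/- library with either inhibitor.

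**Figure D5:**
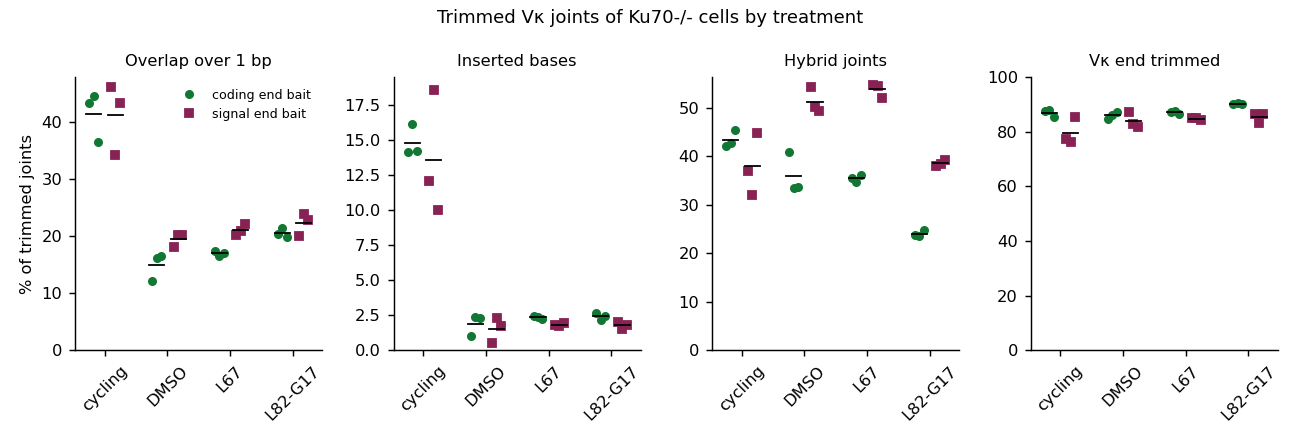
Percentage of trimmed Ku70-/- joints (vertical, own scale per panel, starting at 0) with an overlap over 1 bp, with inserted bases, of hybrid type and with a Vκ end trimmed by 5 bp or more, by condition, for the coding end bait (circles) and the signal end bait (squares); points are libraries and bars means of 3, and the last 2 shares are of joints within 200 bp of a Vκ site. Overlaps over 1 bp are highest in cycling cells (36.5% to 44.5% with the coding end bait), and hybrid joints are lower with L82-G17 (23.7% to 24.7% with the coding end bait) than with DMSO (33.6% to 40.8%).

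In WT cells 1-bp overlaps, the leading class of trimmed coding end joints, ranged from 48.1% to 58.7% over all 12 libraries. Inserted joints were 16.3% ± 3.70 (SD, n = 3) in cycling cells, 23.8% ± 3.79 with DMSO, 24.2% ± 1.66 with L67 and 21.8% ± 0.579 with L82-G17. Trimmed WT signal end joints with L82-G17 were 49.2% ± 11.7 direct, against 38.3% ± 2.79 with DMSO and 37.49% ± 4.04 with L67.

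Trimming in Ku70-/- cells was spread over the Vκ sites. A site was a position where WT signal ends piled up at a CAC, the first bases of the heptamer; 140 were found, 95 at an annotated Vκ gene, with Igkv8-24 counted at both of its sites. Among the 66 sites with at least 100 joints in each of the 3 Ku70-/- DMSO libraries with the coding end bait, the mean trimmed share ran from 62.3% to 97.8%, with a median of 92.3%. Sites oriented for joining of coding ends by deletion numbered 24, with a median of 92.7%, and sites oriented for inversion 42, with a median of 91.9%. The orientation is that of the site and not of each joint. The highest shares were at an unannotated site at 70190420 (100%, 96.3% and 97.2% in the 3 libraries), at Igkv4-56 (100%, 97.3% and 95.1%) and at Igkv5-45 (100%, 92.2% and 97.9%). The lowest were at Igkv11-125 (6.56%, 89.5% and 90.8%), Igkv3-10 (44.9%, 83.0% and 78.4%) and Igkv1-122 (22.6%, 95.4% and 90.4%), where replicate 1 set the order.

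For the signal end, 64 sites qualified and the mean trimmed share ran from 45.6% to 91.3%, with a median of 74.4%. The highest shares were at Igkv9-123 (100%, 93.5% and 80.5%), Igkv9-124 (100%, 86.8% and 86.2%) and Igkv4-74 (99.2%, 84.7% and 83.2%). The lowest were at Igkv4-57 (27.2%, 68.8% and 40.8%), Igkv2-109 (19.4%, 60.5% and 58.3%) and Igkv4-57-1 (17.2%, 59.2% and 70.3%). They stayed below the 3 highest sites in each of the 3 libraries, but the sites were chosen by the mean of these same libraries. Replicate 1 gave the highest value at each of the 3 highest sites and the lowest at each of the 3 lowest. In WT cells the median site had 2.32% trimmed joints with the coding end bait and 0.252% with the signal end bait, over 111 and 105 sites.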

How the data were processed

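The authors mapped HTGTS-JoinT-seq reads (500000 per library, per the labels) to mm9 and deposited per-library junction lists; Bowtie2 is named in the submitters' processing notes, its version is not given in the sources used here. The deposited values are positions of bait and prey ends in the genome and in the read (other, not counts). Bait end, joint gap, Vκ site (pile-ups of at least 30 signal end junctions at a CAC in arrested WT libraries) and distance to it were computed with Python 3.11.15, numpy 2.4.6 and pandas 2.3.3, and genes were taken from GENCODE vM1. Groups follow the labels; every junction was counted as listed. Within-library differences were tested by exact sign-flip permutation (12 libraries), groups by exact permutation, with Benjamini-Hochberg adjustment in each family of tests; the functions were tested on simulated data. With 12 libraries the smallest sign-flip p is 0.000488, and 1.25e-05 for 4 conditions of 3 against 3 libraries.

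The members, lists and comparisons were chosen with earlier results of these data known. Named were, per bait, the 3 highest and 3 lowest Vκ sites by trimmed share in Ku70-/- DMSO libraries, the 3 leading trimming lengths and the 3 leading joints per genotype and bait. Shares, lengths and positions carry no test because the rule selected on them. Depth covers counting error only, since no molecular identifiers are described. Alternatives were the member threshold (3 or 10 bp, 5 to 30 bp), distinct joints counted once, overlap bases taken off the bait, distance limits, prey classes, an untrimmed class ending at the break, and leaving out each library or Ku70-/- DMSO replicate 1; counting bait ends past the break, leaving out the cycling libraries listing recurrent joints without replicate 1, and repeating the closing comparisons and group means under these settings were chosen after seeing the data. The labels carry no replicate numbers, and the numbers given here follow deposition order and were not used to pair libraries.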

Additional observations from a re-analysis of the deposited data

Results flagged for a closer look

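The difference between trimmed and untrimmed joints of a library was itself compared between the genotypes (Ku70-/- minus WT, exact permutation within conditions, 24 libraries a bait, p-values adjusted over 12 tests), and 10 of the 12 comparisons passed. With the coding end bait the genotypes differed by 30.1 percentage points in trimmed Vκ ends, 49.2 points in direct joints, -30.4 points in 1-bp overlaps, -13.6 points in inserted joints and 10.3 points in hybrid joints (exact test, adjusted p = 3.0e-05 for each). With the signal end bait they differed by 41.9 points in direct joints (exact test, adjusted p = 5.0e-05), -8.98 points in 1-bp overlaps (adjusted p = 0.00819), -19.7 points in overlaps over 1 bp (adjusted p = 6.43e-05), -13.3 points in inserted joints (adjusted p = 0.0034) and -23.9 points in hybrid joints (adjusted p = 0.000881). The comparisons that did not pass were overlaps over 1 bp with the coding end bait (-5.16 points, exact test, adjusted p = 0.157) and trimmed Vκ ends with the signal end bait (-4.25 points, adjusted p = 0.456). Without the cycling libraries the difference in overlaps over 1 bp with the coding end bait was -11.8 points (exact test, unadjusted p = 0.001), and that in hybrid joints 5.12 points.

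These differences depended on the settings (same exact test, unadjusted p-values). Among coding end joints with members from 3 bp the genotypes differed by 17.05 points in 1-bp overlaps (exact p = 0.000838) and -9.29 points in hybrid joints (p = 0.0844), both of opposite sign, and by 19.3 points in trimmed Vκ ends, 25.7 points in direct joints, -10.7 points in longer overlaps (p = 0.0118) and -32.03 points in inserted joints. From 10 bp trimmed Vκ ends differed by -9.96 points (exact p = 0.0396) and longer overlaps by 1.42 points (p = 0.729), again of opposite sign, direct joints by 25.6 points, 1-bp overlaps by -15.8 points and hybrid joints by 4.46 points (p = 0.0155). Over distinct joints the values were 25.2 points for direct joints, -17.8 points for 1-bp overlaps, -3.81 points for longer overlaps (exact p = 0.0423), -3.55 points for inserted joints (p = 0.279) and 4.51 points for hybrid joints (p = 0.0407). Against joints ending at the break direct joints differed by 80.2 points and inserted joints by -65.4 points, while longer overlaps (9.57 points, exact p = 0.0372) and hybrid joints (-5.51 points, p = 0.275) changed sign. With signal preys only, trimmed Vκ ends differed by 12.5 points (exact p = 0.138). The difference in longer overlaps was -7.58 points with bait ends past the break counted (exact p = 0.0275) and -6.72 points without Ku70-/- cycling replicate 2 (p = 0.0216).

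With the signal end bait and distinct joints, direct joints (-5.28 points, p = 0.128) and inserted joints (18.8 points, p = 1.25e-05) changed sign in the same exact test, 1-bp overlaps differed by -1.20 points (p = 0.637), longer overlaps by -12.3 points and hybrid joints by -7.94 points (p = 0.0768). From 10 bp longer overlaps differed by -39.1 points, inserted joints by -6.62 points (exact p = 0.0732) and hybrid joints by -3.93 points (p = 0.493), and from 3 bp inserted joints differed by -22.96 points. Against joints ending at the break 1-bp overlaps differed by -5.21 points (exact p = 0.0983). Trimmed Vκ ends differed by -18.4 points from 10 bp of bait trimming (exact p = 0.0171), 7.64 points from 3 bp (p = 0.0293), 6.89 points over distinct joints (p = 0.0513), 13.8 points against joints ending at the break (p = 0.0149), 16.9 points with Vκ trimming counted from 10 bp (p = 0.00332) and -9.10 points without WT cycling replicate 1 (p = 0.0219). Without the cycling libraries, which held the fewest trimmed WT signal end joints, the differences were 48.4 points in direct joints, -12.8 points in 1-bp overlaps, -16.6 points in longer overlaps, -19.1 points in inserted joints and -28.25 points in hybrid joints (exact p = 0.0005 for 1-bp overlaps and 0.00025 for the others).

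In 3 cases every WT library of a condition lay on one side of the DMSO libraries and every Ku70-/- library on the opposite side; the difference between the genotypes (Ku70-/- minus WT) was not tested there. Direct joints of trimmed coding ends in cycling cells differed from DMSO by 5.16 points in WT and -25.7 points in Ku70-/- cells, which is -30.9 points between them. Inserted joints of the same libraries differed by -7.43 and 12.9 points (20.4 points between them), and direct joints of trimmed signal ends with L82-G17 by 10.9 and -6.91 points (-17.8 points between them). Over distinct joints the cycling difference in inserted joints was -15.2 points in WT and -3.11 points in Ku70-/- cells (12.1 points between them), and the L82-G17 difference in direct joints was 8.41 and 2.79 points, so that neither pair of means had opposite signs. Within 200 bp of a Vκ site the cycling differences in inserted joints were -7.255 and 7.18 points (14.4 points between them). From 10 bp the cycling differences were -24.03 and 13.6 points in inserted joints and 19.6 and -32 points in direct joints; from 3 bp those in direct joints were -0.111 and -23.5 points. The WT value with L82-G17 rested on replicate 2, and without it the WT difference was 4.09 points, which is -11 points between the genotypes.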

How the results depend on the processing

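No paired analysis was possible because the labels carry no replicate numbers that would pair libraries of different groups; trimmed and untrimmed joints were compared within each library. The values below are percentages or differences in percentage points with unadjusted exact permutation p-values, and the cause of each change was not tested. The trimmed share with DMSO (WT coding end, WT signal end, Ku70-/- coding end, Ku70-/- signal end) was 13.7%, 2.16%, 97.2% and 79.96% from 3 bp, 0.105%, 0.105%, 65.1% and 56.5% from 10 bp, 10.9%, 10.9%, 92.6% and 76.5% over distinct joints, and 2.83%, 1.25%, 92.2% and 75.5% with overlap bases taken off the bait. For 5 to 30 bp it was 74.3% and 58.3% in Ku70-/- cells, and within 200 bp of a Vκ site it was 0.562% for WT signal ends.

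With members from 3 bp, these differences changed sign. They were trimmed minus untrimmed 1-bp overlaps of WT coding ends (-2.84) and hybrid joints of Ku70-/- coding ends (-9.20). So did the genotype difference with the coding end in direct joints (-24.6) and 1-bp overlaps (15.4). The WT bait difference did in direct joints (-37.51), 1-bp overlaps (7.89) and insertions (12.4), and in Ku70-/- coding end joints the cycling difference in Vκ trimming (-2.29) and the L67 difference in hybrid joints (0.145). From 10 bp they were Vκ trimming of WT coding ends (31.8), direct joints (-1.41), 1-bp overlaps (-5.75) and longer overlaps (8.48) of Ku70-/- coding ends, the genotype difference in 1-bp overlaps with the coding end (0.845) and in longer overlaps with the signal end (-15.6), the WT bait difference in Vκ trimming (-3.90) and direct joints (-15.1), the Ku70-/- bait difference in longer overlaps (-0.364) and the cycling difference in Vκ trimming of Ku70-/- signal ends (3.90).

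With each distinct joint counted once, the sign changed for longer overlaps (-0.0204), insertions (-5.77) and hybrid joints (-0.368) of WT coding ends, insertions of WT signal ends (-17.4), and in Ku70-/- cells for cycling Vκ trimming (-2.63, coding end), L67 longer overlaps (-0.552, signal end), L67 hybrid joints (0.848, coding end) and insertions with cycling, L67 and L82-G17 (-3.11, -7.93 and -7.18 with the coding end, -7.79, -8.13 and -9.75 with the signal end). The WT bait difference in Vκ trimming was then 1.25 (exact p = 0.728), and the Ku70-/- bait difference in longer overlaps was 2.51 (p = 7.5e-05).

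Vκ trimming of WT coding ends was 2.16 when counted from 10 bp, 7.12 in direct joints and 7.33 with signal preys. The Ku70-/- bait difference in Vκ trimming was -2.64 from 10 bp (exact p = 0.0827), -4.63 with coding preys (p = 0.111) and -1.41 with signal preys (p = 0.402), and the WT one 8.53 in direct joints (p = 0.219), 6.64 with coding preys (p = 0.3) and 12.7 with signal preys (p = 0.143). With coding preys the signal end difference was 7.11 in WT (exact p = 0.344) and 0.513 in Ku70-/- cells (p = 0.958). The cycling difference in Vκ trimming was 4.41 from 10 bp (signal end), -3.90 in direct joints and -0.0357 with signal preys (coding end). Against untrimmed joints ending at the break, longer overlaps differed by 0.227 in WT coding ends (exact p = 0.497), 9.80 in Ku70-/- coding ends (p = 0.0825) and 9.76 in Ku70-/- signal ends (p = 0.0381), and hybrid joints of Ku70-/- coding ends by -4.95 (p = 0.401). For 5 to 30 bp the Ku70-/- bait difference in longer overlaps was 4.67 (exact p = 0.00166). With bait ends past the break counted, it was 2.57 (exact p = 0.0486), and the genotype difference in longer overlaps with the signal end was -0.372. Without the cycling libraries longer overlaps differed by -10.2 in Ku70-/- coding ends (exact p = 0.00781) and -3.28 in signal ends (p = 0.00391), the genotype difference in longer overlaps with the signal end was 6.72 (p = 0.00025) and the Ku70-/- bait difference in them 3.43 (p = 0.001).

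Leaving out single libraries gave ranges of 1.90 to 3.39 for the Ku70-/- bait difference in longer overlaps, -2.36 to 3.53 for the genotype difference in longer overlaps with the signal end (below 0 without WT cycling replicate 1), -0.202 to 4.40 for direct joints and -6.72 to -2.79 for longer overlaps of Ku70-/- coding ends, -1.72 to 1.91 for L67 hybrid joints with the coding end, and with the signal end -0.214 to 0.677 for L67 insertions, -0.273 to 0.618 for L82-G17 insertions and -0.138 to 2.46 for L67 Vκ trimming. The lowest insertion values and the highest hybrid value came without DMSO replicate 1, also when it was left out for both baits (-0.214, -0.273 and 1.91). With a single library left out, 835 of 864 values whose test could pass kept their direction and their side of the threshold; of 144 values of 3 against 3 libraries, where no test could pass, 140 kept their direction. Depth limited the WT cycling signal end values most, with 39 to 61 trimmed joints a library.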
